A study of Mus musculus with 18 samples.

Results

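Small leucine-rich proteoglycans are secreted matrix proteins built from leucine-rich repeats, and 9 of their genes were followed across 6 groups of mouse embryonic fibroblasts: Bgn (biglycan), Dcn (decorin), Aspn (asporin), Lum (lumican), Fmod (fibromodulin), Prelp, Omd (osteomodulin), Ogn (osteoglycin) and Podn (podocan). The family was chosen by its measured levels in these same groups, so those levels are given as a description and carry no test. All 9 symbols were found, each as 1 of the 51499 gene entries, called loci here. Different entries can share an assembled interval, as those of Aspn, Omd and Ogn do. Only Bgn and Ogn reached a mean of 1 FPKM (fragments scaled for transcript length and library size) over the 6 groups, as 11929 loci did. Of the members inside that limit Ogn had the lower mean, 9.96 FPKM, and of those outside it Aspn had the highest, 0.901.

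The experiment asked which mRNAs are lowered through AGO2, the slicing Argonaute of RNA interference, when the endoplasmic reticulum (ER) is stressed. Total RNA was sequenced from 18 libraries of embryonic fibroblasts, 3 in each group. Cells labelled AGO2 +/+ or AGO2 -/- received the solvent DMSO, tunicamycin, which blocks N-linked glycosylation, or thapsigargin (500 nM), an inhibitor of the pump that fills the ER with calcium. The groups are named here AGO2 +/+ DMSO, AGO2 +/+ tunicamycin, AGO2 +/+ thapsigargin, AGO2 -/- DMSO, AGO2 -/- tunicamycin and AGO2 -/- thapsigargin, as labelled. All 6 groups are cultured embryonic fibroblasts, and the labels give no strain. The duration of treatment and the dose of tunicamycin are stated in the study's methods and not in the labels, and are not repeated here. The cells were gifted lines. Apart from a western blot for AGO2 in the knockout cells, the study states no authentication, and which part of the gene was deleted is not stated there. Each value below is the authors' FPKM, 1 value for a group of 3 libraries. It carries no replicate spread, so no SD or interval can be given. The authors' own test results, which the same table holds, were not used, so no difference between groups is tested here.

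The labels need care. The library titles write DCR1, and not AGO2, for every group labelled AGO2 +/+. For 4 of the 18 libraries the genotype labels contradict each other, and these libraries cannot be left out of a pooled value. Under DMSO the Ago2 level was 5.61 FPKM with the -/- label and 22.1 with the +/+ label, but under tunicamycin it was 15.5 and 5.75, and under thapsigargin 20.7 and 17.0. Y-linked Uty, Kdm5d, Eif2s3y and Ddx3y had values of 0 in 4 groups and lay between 6.03 and 32.3 FPKM in AGO2 +/+ thapsigargin and AGO2 -/- tunicamycin. Xist, measured at a locus shared with Gm27733 and Gm27927, was at 46.6 FPKM in AGO2 +/+ DMSO and 33.5 in AGO2 -/- thapsigargin, and at most 0.0574 elsewhere. The groups thus fell into 3 crossed pairs with like values of these genes, each joining different genotype and treatment labels. Every direction given below holds for the labels as deposited.

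As background, proteins of this family sit on collagen fibrils and help to set fibril diameter and spacing. Class I members carry chondroitin or dermatan sulfate chains, asporin being the exception, and class II members can carry keratan sulfate. Several also bind TGF-beta and other growth factors, and biglycan released from the matrix is a ligand of Toll-like receptors. Fibroblasts of connective tissue are a main source, and decorin and lumican are usually among their abundant mRNAs.

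Because Bgn, Aspn, Ogn and Fmod had their highest levels in the same 2 groups, the 250 bases before the RefSeq start of each (GRCm38.p6) are shown. The Omd window is given for comparison, as the gene between Aspn and Ogn that varied little. Podn and Lum were also highest in these 2 groups, but the 2 windows of Podn are not printed and Lum has none. RefSeq windows were matched for 7 of the 9 members, Dcn and Lum having no entry. The Bgn window lies at chrX:73483351-73483600, that of Aspn at chr13:49544193-49544442, that of Ogn at chr13:49607765-49608014, that of Omd at chr13:49582212-49582461 and that of Fmod at chr1:134037004-134037253, all on the plus strand. Capitals mark matches on either strand to a TATA box (spelled TATAAA), to a GC box (spelled GGGCGG) or to a box of the letters CCAAT.
Bgn: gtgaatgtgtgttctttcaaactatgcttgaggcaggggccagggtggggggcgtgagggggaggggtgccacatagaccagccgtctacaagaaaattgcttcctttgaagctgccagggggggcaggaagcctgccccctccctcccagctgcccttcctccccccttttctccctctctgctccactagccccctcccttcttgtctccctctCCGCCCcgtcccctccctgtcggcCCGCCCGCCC
Aspn: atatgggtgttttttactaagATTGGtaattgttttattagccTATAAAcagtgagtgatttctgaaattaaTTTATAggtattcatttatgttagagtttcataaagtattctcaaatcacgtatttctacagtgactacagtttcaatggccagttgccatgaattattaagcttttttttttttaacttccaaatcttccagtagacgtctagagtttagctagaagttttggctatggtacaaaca
Ogn: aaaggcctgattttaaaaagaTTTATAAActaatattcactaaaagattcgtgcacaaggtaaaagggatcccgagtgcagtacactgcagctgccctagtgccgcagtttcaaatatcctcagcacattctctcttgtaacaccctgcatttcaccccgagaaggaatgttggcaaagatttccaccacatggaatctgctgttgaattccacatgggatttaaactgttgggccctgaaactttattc
Omd: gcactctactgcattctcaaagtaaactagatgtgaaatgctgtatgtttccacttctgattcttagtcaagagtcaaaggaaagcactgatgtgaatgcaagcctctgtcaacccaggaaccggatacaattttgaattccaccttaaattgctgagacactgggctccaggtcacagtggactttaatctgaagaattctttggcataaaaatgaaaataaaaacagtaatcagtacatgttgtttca
Fmod: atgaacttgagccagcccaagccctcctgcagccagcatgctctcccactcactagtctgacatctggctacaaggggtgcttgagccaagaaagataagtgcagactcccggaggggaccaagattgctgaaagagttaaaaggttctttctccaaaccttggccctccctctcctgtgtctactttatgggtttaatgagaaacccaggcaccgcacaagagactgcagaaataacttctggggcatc

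The windows differed in base composition and in the motifs they held. The Bgn window was 64.4% G and C and held 3 GC boxes, at -34, -10 and -6 from the start (first base of the match, read along the gene), the latter 2 overlapping. Podn, with 2 windows, held 2 GC boxes in one of them. Of all 32851 RefSeq windows of this length, 32.7% hold a GC box and the median G and C content is 52.4%. The Aspn window was 30.0% G and C, with 2 TATA boxes at -207 and -178 and a CCAAT box at -229. That of Ogn was 42.0% G and C, with 2 overlapping TATA boxes at -229 and -227. A TATA box is found in 12.4% of all windows and a CCAAT box in 33.8%. The Omd window (38.4% G and C) and the Fmod window (51.2%) held none of the 3 motifs, and Prelp held 1 CCAAT box at -15. An E-box (CANNTG, both strands), present in 66.2% of all windows, was found for Bgn, Aspn, Ogn, Fmod and Podn. No match was found in the member windows for an AP-1 site (TGANTCA, 6.75% of all windows), a CArG box (1.47%), an ER stress response element (0.113%) or the letters GTCTAGAC of a SMAD box (0.167%). Of the motifs searched, only the E-box was common to the windows of Bgn, Aspn, Ogn, Fmod and Podn.

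Biglycan, the class I member that binds collagen and TGF-beta, spanned more FPKM than any other member. Bgn (ENSMUSG00000031375, chrX:73483602-73495933, plus strand, GRCm38) stood, in rising order, at 0.667 FPKM in AGO2 +/+ DMSO, 1.00 in AGO2 -/- thapsigargin, 5.52 in AGO2 -/- DMSO, 6.24 in AGO2 +/+ tunicamycin, 469 in AGO2 -/- tunicamycin and 498 in AGO2 +/+ thapsigargin. The values formed 3 tiers of 2 groups each. The 2 groups of the top tier differed 1.06-fold, a 75.1-fold step separated them from AGO2 +/+ tunicamycin, and the highest group was 746 times the lowest. The same plain ratio was 338 for Fmod, 125 for Aspn, 40.1 for Dcn and 16.0 for Podn, whose highest values were at most 3.98 FPKM, and none can be given for Lum and Prelp, which are listed at 0 in some groups. In AGO2 -/- tunicamycin 157 of the 51499 loci had a higher FPKM than Bgn, and in AGO2 +/+ DMSO 12021 did. Within tiers, AGO2 +/+ tunicamycin was 1.13 times AGO2 -/- DMSO, and AGO2 -/- thapsigargin was 1.5 times AGO2 +/+ DMSO. Without values for single libraries, it cannot be said whether these neighbours differ beyond their spread.

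Decorin, the closest relative of biglycan and a collagen-binding class I proteoglycan, ran differently. Dcn (ENSMUSG00000019929, chr10:97479609-97518143, plus strand) ranged from 0.0265 FPKM in AGO2 +/+ thapsigargin and 0.0488 in AGO2 +/+ DMSO over 0.124 in AGO2 -/- tunicamycin and 0.193 in AGO2 +/+ tunicamycin to 0.638 in AGO2 -/- DMSO and 1.06 in AGO2 -/- thapsigargin. It was highest in AGO2 -/- thapsigargin, where Bgn was low, and lowest in the group where Bgn was highest. The order was not simply reversed, since Dcn was also low in AGO2 +/+ DMSO, the group with the lowest Bgn. Its level stayed at or near 1 FPKM or below in every group, and the number of fragments behind such values is unknown, since no depth is given.

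Asporin, a class I protein that lacks the glycosaminoglycan chains of its relatives and binds collagen and calcium, was the third of its class. Aspn (ENSMUSG00000021388, chr13:49544443-49567565, plus strand) had 0.0319 FPKM in AGO2 +/+ tunicamycin, 0.0355 in AGO2 -/- thapsigargin, 0.0467 in AGO2 +/+ DMSO, 0.128 in AGO2 -/- DMSO, 1.18 in AGO2 +/+ thapsigargin and 3.98 in AGO2 -/- tunicamycin. Only the 2 groups with high Bgn exceeded 1 FPKM. Between those 2 groups Aspn differed 3.36-fold, whereas Bgn differed 1.06-fold in the opposite direction.

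The class II members were low throughout. Fmod (ENSMUSG00000041559, chr1:134037254-134048277, plus strand), which encodes a tendon protein that modulates collagen crosslinking, lay at 0.00270 FPKM in AGO2 +/+ DMSO, 0.0105 in AGO2 -/- DMSO, 0.0107 in AGO2 +/+ tunicamycin, 0.0228 in AGO2 -/- thapsigargin, 0.343 in AGO2 +/+ thapsigargin and 0.914 in AGO2 -/- tunicamycin. Its 2 highest groups were those of Aspn, in the same order. Prelp (ENSMUSG00000041577, chr1:133910304-133921414, minus strand), whose product binds heparan sulfate and collagen, reached 0.150 FPKM in AGO2 -/- tunicamycin. It had 0.0290 in AGO2 -/- thapsigargin, 0.0184 in AGO2 +/+ thapsigargin, 0.00237 in AGO2 +/+ DMSO, and a value of 0 in the other 2 groups.

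Lum (ENSMUSG00000036446, chr10:97565128-97572703, plus strand), the keratan sulfate proteoglycan of cornea and other connective tissue, was practically not detected. It stood at 0.0138 FPKM in AGO2 -/- tunicamycin, 0.00724 in AGO2 +/+ thapsigargin and 0.00341 in AGO2 -/- DMSO, and was listed at 0 in the other 3 groups. Omd (ENSMUSG00000048368, chr13:49582462-49592822, plus strand), a protein of mineralised matrix, was the steadiest member, with a highest group 2.69 times the lowest. With the +/+ label it had 0.159 FPKM under thapsigargin, 0.169 under DMSO and 0.206 under tunicamycin, and with the -/- label 0.347 under DMSO, 0.378 under thapsigargin and 0.428 under tunicamycin. The 3 groups labelled AGO2 -/- all lay above the 3 labelled AGO2 +/+, at levels below 1 FPKM.

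Osteoglycin, a class III protein of bone and vessel wall, was the only member above 3 FPKM in all 6 groups. Ogn (ENSMUSG00000021390, chr13:49608046-49624501, plus strand) stood at 3.39 FPKM in AGO2 +/+ DMSO, 6.43 in AGO2 -/- thapsigargin, 6.48 in AGO2 +/+ tunicamycin, 7.84 in AGO2 -/- DMSO, 10.3 in AGO2 +/+ thapsigargin and 25.3 in AGO2 -/- tunicamycin. Its 2 highest groups and its lowest group were those of Bgn, with the order of the top 2 exchanged. Ogn was 2.45 times higher in AGO2 -/- tunicamycin than in AGO2 +/+ thapsigargin, and its whole range was 7.46-fold. AGO2 +/+ tunicamycin and AGO2 -/- thapsigargin differed 1.01-fold.

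Podn (ENSMUSG00000028600, chr4:108014791-108096445, minus strand), a class V member that binds collagen and is found in kidney and smooth muscle, had 0.0394 FPKM in AGO2 +/+ tunicamycin, 0.0561 in AGO2 +/+ DMSO, 0.0729 in AGO2 -/- DMSO, 0.278 in AGO2 -/- thapsigargin, 0.349 in AGO2 +/+ thapsigargin and 0.630 in AGO2 -/- tunicamycin. Its 2 top groups were again AGO2 -/- tunicamycin and AGO2 +/+ thapsigargin, followed by AGO2 -/- thapsigargin at a 1.25-fold distance.

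**Figure D1:**
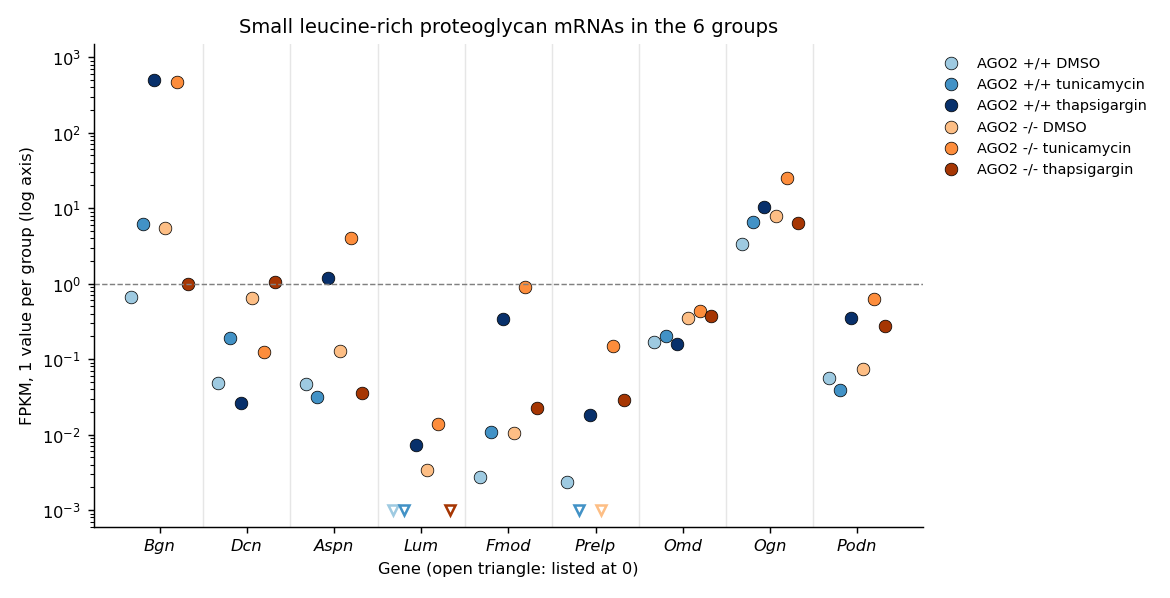
Points give the FPKM (log axis) of each of the 9 genes in the 6 groups, 1 pooled value per group without error bars; open triangles at the bottom mark values listed at 0 and the dashed line marks 1 FPKM. Bgn spans 0.667 to 498 FPKM with 2 groups at 469 and 498, Ogn spans 3.39 to 25.3, and most other values lie below 1.

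FPKM is scaled to transcript length, so levels can be set side by side between genes. The summed level of the 9 mRNAs was 4.39 FPKM in AGO2 +/+ DMSO, 9.24 in AGO2 -/- thapsigargin, 13.2 in AGO2 +/+ tunicamycin and 14.6 in AGO2 -/- DMSO. It was 500.2 FPKM in AGO2 -/- tunicamycin and 510.3 in AGO2 +/+ thapsigargin. Bgn made up 97.6% of the sum in AGO2 +/+ thapsigargin and 93.7% in AGO2 -/- tunicamycin, and between 10.9% and 47.3% in the other 4, where Ogn held the larger share (49.1% to 77.4%). The other 7 members together contributed between 0.409% and 19.5%. At most 3 of the 9 genes reached 1 FPKM in any group.

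Of the 9 genes, 7 had their highest value in AGO2 -/- tunicamycin, Bgn being highest in AGO2 +/+ thapsigargin and Dcn in AGO2 -/- thapsigargin. This group was the highest for 19.3% of all loci above the limit on mean level, and for 17.2% of the 14500 loci with a lower mean that was not 0. The 2 highest groups were AGO2 -/- tunicamycin and AGO2 +/+ thapsigargin for 6 members (Bgn, Aspn, Lum, Fmod, Ogn and Podn). The same held for 26.0% of loci above the limit and 12.9% below it. These patterns belong to the levels by which the family was chosen, and nothing is read from the counts.

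Each of the 4 stressor comparisons joins groups that are unlike in Xist or in Y-linked genes. Stressor and kind of cells therefore cannot be told apart in the ratios that follow. Thapsigargin against DMSO in the groups labelled AGO2 +/+ had the largest log2 ratio in the family. Bgn went from 0.667 to 498 FPKM, a log2 ratio of 8.23 after 1 FPKM was added to each value, and 4 of the 11929 loci, Bgn included, moved as far in either direction. Ogn had a log2 ratio of 1.36 (3.39 to 10.3 FPKM), and 1036 loci moved at least as far. Both genes were thus at least 2-fold higher, where 7.44% of loci were 2-fold higher and 5.46% were 2-fold lower. Aspn, under the limit on mean level, had a log2 ratio of 1.06. The log2 ratios of the remaining 6 members lay between -0.03 (Dcn) and 0.42 (Fmod), which the added 1 FPKM keeps small at such levels.

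Tunicamycin against DMSO in the same labelled genotype had smaller ratios for Bgn and Ogn. Bgn was 6.24 against 0.667 FPKM (log2 ratio 2.12), and it was the only member at least 2-fold higher, where 7.70% of loci were higher and 6.32% lower. For Ogn the log2 ratio was 0.77, under the 2-fold limit. No other member had a log2 ratio beyond 0.19. Both stressor comparisons in this genotype share the DMSO group, so a low value there raises both ratios.

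In the groups labelled AGO2 -/-, the comparisons of tunicamycin and of thapsigargin with DMSO differed in direction for Bgn and Ogn. Under tunicamycin Bgn was 469 against 5.52 FPKM (log2 ratio 6.17, with 22 loci moving as far) and Ogn 25.3 against 7.84 (1.57). Both were 2-fold higher, as were 9.50% of loci, whereas 8.36% were lower. Aspn had a log2 ratio of 2.14, Fmod of 0.92 and Podn of 0.60, while Dcn had -0.54. Under thapsigargin Bgn was 1.00 against 5.52 FPKM (log2 ratio -1.70) and was the only member at least 2-fold lower, a class that held 7.99% of loci, against 6.31% that were higher. Ogn had -0.25, and the other 7 members lay between -0.12 (Aspn) and 0.33 (Dcn).

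**Figure D2:**
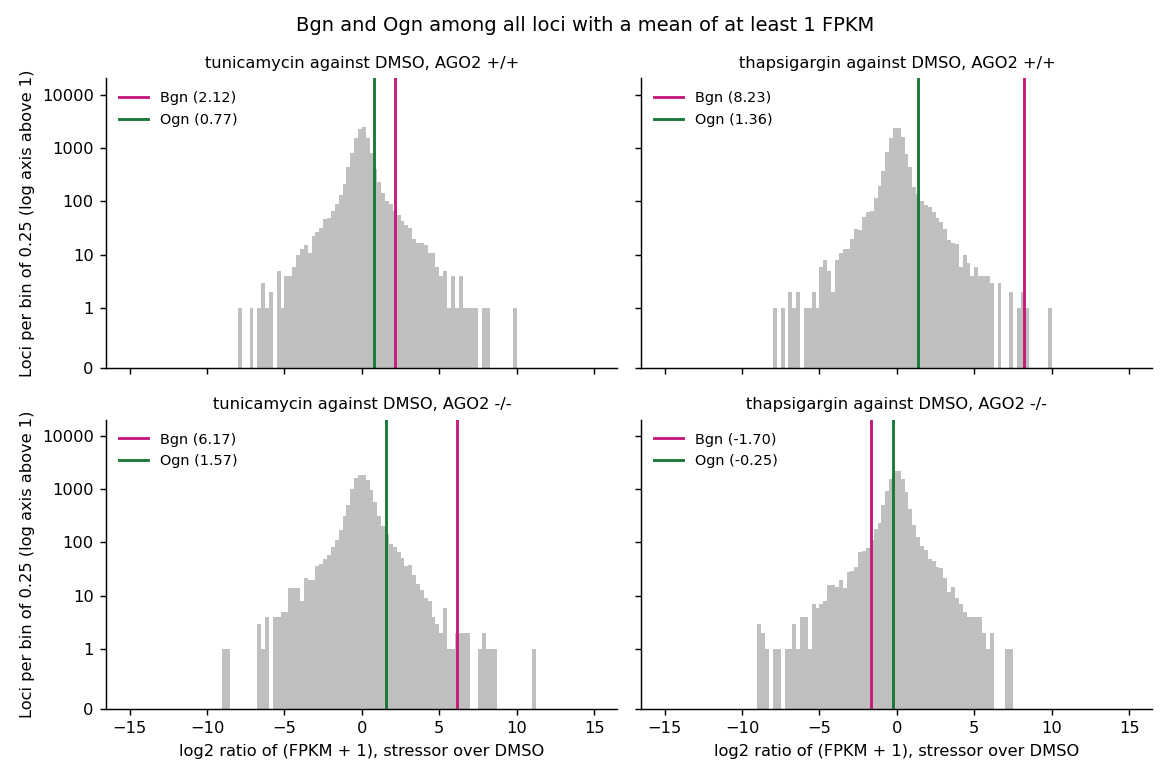
Grey bars count the 11929 loci that passed the limit of 1 FPKM by their log2 ratio of FPKM + 1, stressor over DMSO, in bins of 0.25 (vertical axis logarithmic above 1), in 4 panels by stressor and labelled genotype. The Bgn line lies at the edge of the distribution under thapsigargin in AGO2 +/+ (8.23) and tunicamycin in AGO2 -/- (6.17), and on the other side of 0 under thapsigargin in AGO2 -/- (-1.70); the Ogn line stays between -0.25 and 1.57.

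The labelled genotypes were compared within each treatment, since the study looked for mRNAs that AGO2 changes under stress. Under DMSO Bgn was 5.52 FPKM in AGO2 -/- and 0.667 in AGO2 +/+ (log2 ratio 1.97), and Ogn 7.84 and 3.39 (1.01), so both were at least 2-fold higher, along with 7.99% of loci, and 6.38% were lower. Under tunicamycin the Bgn log2 ratio was 6.02 and that of Ogn 1.81, in a comparison where 9.39% of loci were higher and 7.92% lower. Under thapsigargin the direction turned: Bgn was 1.00 FPKM in AGO2 -/- against 498 in AGO2 +/+ (log2 ratio -7.96, with 4 loci moving as far) and was the only member called lower, with 8.19% of loci, while 5.58% were higher. There Ogn had -0.60, Aspn -1.08 and Dcn 1.01, the last from 0.0265 to 1.06 FPKM. Each of these comparisons reuses groups of the stressor comparisons, so the ratios are not separate evidence. Each also joins groups that are unlike in Xist or in Y-linked genes.

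The 3 crossed pairs, which differ in both labels, were much closer. Of the 11929 loci, 1.04% were 2-fold apart between AGO2 +/+ tunicamycin and AGO2 -/- DMSO, 0.998% between AGO2 +/+ thapsigargin and AGO2 -/- tunicamycin, and 1.87% between AGO2 -/- thapsigargin and AGO2 +/+ DMSO. Bgn had log2 ratios of 0.15, 0.09 and 0.26 in these pairs and so stayed within the 2-fold limit in all 3. Ogn had -0.24, -1.22 and 0.76. In the second of these pairs Ogn was called, being 10.3 FPKM in AGO2 +/+ thapsigargin and 25.3 in AGO2 -/- tunicamycin, and 96 of the 11929 loci were at least as far apart. Aspn was as uneven there (log2 ratio -1.19), with 1.18 and 3.98 FPKM.

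Between AGO2 +/+ thapsigargin and AGO2 -/- tunicamycin, 8 of the 9 members had the higher value in AGO2 -/- tunicamycin, Bgn being the exception. All 7 members with a mean under 1 FPKM were among the 8. Of the 14500 loci with such a mean, 40.6% were higher in AGO2 -/- tunicamycin and 33.7% in AGO2 +/+ thapsigargin, and of the loci above the limit 48.7% and 50.6%. Among the low members, Fmod was 0.914 against 0.343 FPKM, Prelp 0.150 against 0.0184, Omd 0.428 against 0.159 and Podn 0.630 against 0.349. After 1 FPKM was added to each value, only Ogn and Aspn were 2-fold apart. The family was chosen by these levels and each group has 1 value, so nothing is read from the count.

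**Figure D3:**
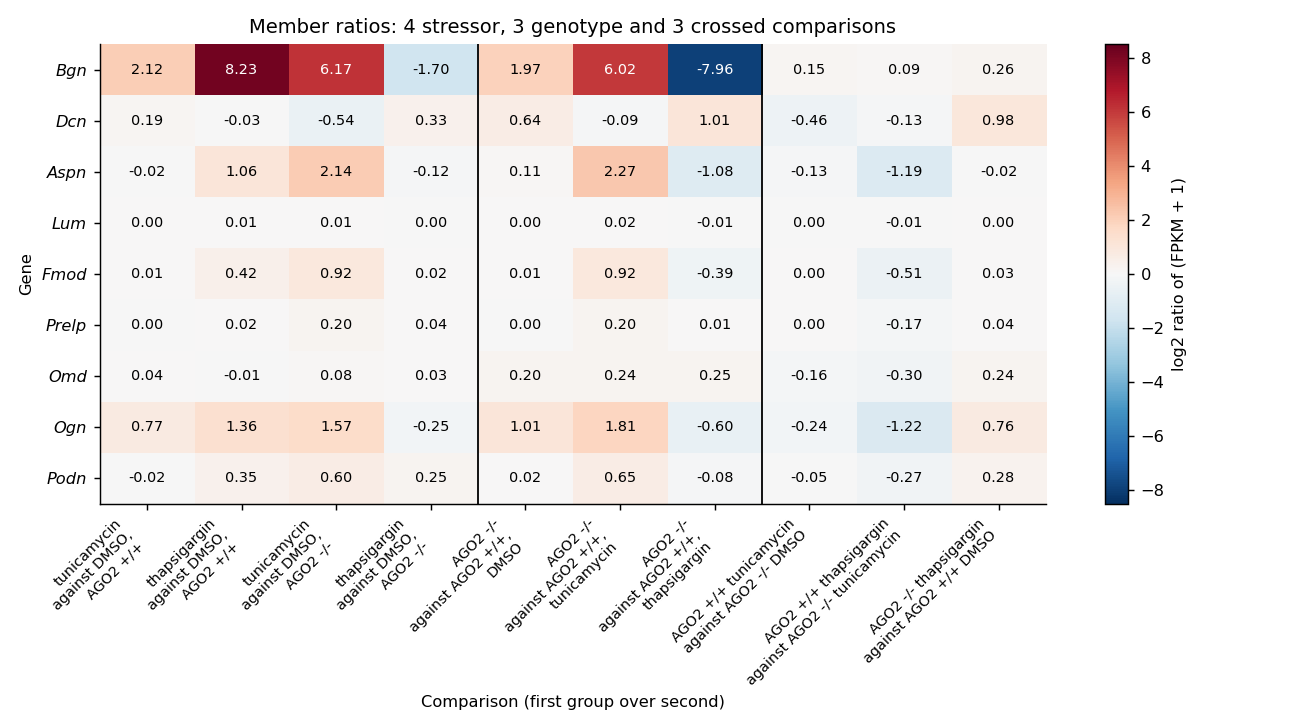
The heat map gives the log2 ratio of FPKM + 1 for each of the 9 genes (rows) in 4 comparisons of a stressor with DMSO, 3 of the labelled genotypes and 3 between the crossed pairs (columns), red for a higher first group. The row of Bgn runs from -7.96 to 8.23 and stays between 0.09 and 0.26 in the crossed pairs, where Ogn and Aspn reach -1.22 and -1.19.

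Many of these genes lie side by side in the genome, and some neighbours differed in level while others were alike. On chromosome 13 Ecm2, Aspn, Omd and Ogn span 119.7 kb on the plus strand. In AGO2 -/- tunicamycin they stood at 0.159, 3.98, 0.428 and 25.3 FPKM in that order, so the quiet Omd lay between 2 genes with higher levels. Ecm2, a related matrix gene, ranged from 0.0501 to 0.159 FPKM. The assembled interval shared by Aspn, Omd and Ogn (chr13:49421249-49652785) also covers Ippk, AC123954.1 and Cenpp, the last on the opposite strand. Cenpp, a centromere gene at 9.03 to 18.0 FPKM, shares 0 annotated exonic bases with Ogn and Omd and 7 with Aspn (0.3% of the exonic bases of Aspn). The sources used here do not say whether reads were counted by strand, so reads of unannotated overlaps could not be told apart.

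The cluster on chromosome 10 holds Dcn, Lum, Kera and Epyc within 202.8 kb. Kera, a corneal keratan sulfate proteoglycan, was at most 0.00435 FPKM and Epyc was listed at 0 in all 6 groups, so Dcn was the only gene of this cluster above 0.1 FPKM in any group. On chromosome 1 Optc, Prelp and Fmod lie within 151.1 kb. Optc, whose product opticin belongs to class III, had 0.531 FPKM in AGO2 +/+ thapsigargin and 0.724 in AGO2 -/- tunicamycin and at most 0.0164 elsewhere, the same 2 groups in which Fmod was highest. Prelp shares its assembled interval with Optc and Podn with Scp2, without shared annotated exonic bases in either case.

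**Figure D4:**
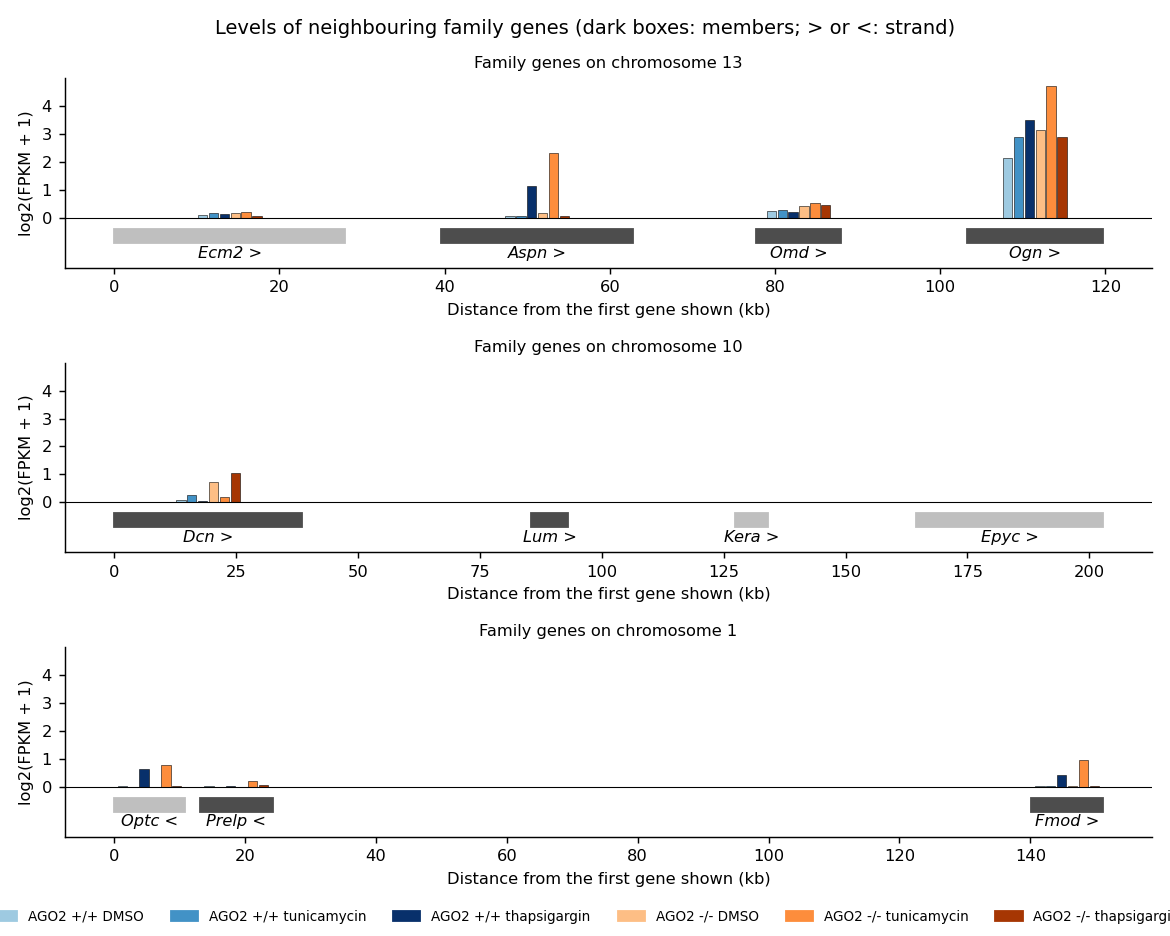
Bars give log2(FPKM + 1) in the 6 groups above each gene of 3 family clusters, with boxes drawn to scale by distance in kb from the first gene shown (dark for the 9 members, light for other family genes). Ogn is the tallest in its cluster in each group, Omd stays low between Aspn and Ogn, and no bar of Lum, Kera or Epyc is visible.

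Other family genes that were not members were listed too, 8 in all, and only Tsku and Podnl1 passed the limit on mean level. Tsku, whose product tsukushi binds TGF-beta and WNT pathway proteins, was at 56.1 FPKM in AGO2 +/+ tunicamycin and 60.3 in AGO2 -/- DMSO, and between 9.37 and 11.0 in the other 4 groups. Podnl1, a relative of podocan, was at 1.24 and 0.988 FPKM in those 2 groups and between 3.91 and 7.27 elsewhere. Both therefore set apart the pair of groups in which Bgn held its middle level.

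The chains of these proteoglycans need a set of enzymes, most of which were present. Of 23 genes for chondroitin and dermatan sulfate synthesis 20 passed the limit. Of these 3 were 2-fold higher and 1 lower under thapsigargin in AGO2 +/+, 6 and 1 under tunicamycin in AGO2 -/-, 1 and 2 under tunicamycin in AGO2 +/+, and 2 and 1 under thapsigargin in AGO2 -/-. Over all loci the shares higher and lower were 7.44% and 5.46%, 9.50% and 8.36%, 7.70% and 6.32%, and 6.31% and 7.99% in the same order of comparisons, so counts of 1 or 2 in 20 are near the background. The median log2 ratios of the list were 0.12, 0.22, 0.05 and -0.09, beside medians over all loci between -0.02 and 0.01. Papss2, which makes the sulfate donor, was high in the 2 groups with high Bgn. It was at 16.0 FPKM in AGO2 +/+ thapsigargin, 19.7 in AGO2 -/- tunicamycin and at most 0.193 in the other groups. Papss2 and Ust passed the limit on mean level only through these 2 groups, so the limit sets part of the counts there. Papss1, a paralog of Papss2 and the most abundant gene of the list, stayed between 22.6 and 46.9 FPKM. Csgalnact1, a chain-starting transferase, was lower under thapsigargin in AGO2 +/+ (0.146 against 2.28 FPKM).

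For keratan sulfate synthesis the counts were small in both directions. Of 9 genes that passed the limit, out of 11, 2 were higher and 0 lower under tunicamycin in AGO2 +/+, 0 and 1 under thapsigargin in AGO2 +/+, 2 and 3 under tunicamycin in AGO2 -/-, and 1 and 2 under thapsigargin in AGO2 -/-. Over all loci the shares were 7.70% and 6.32%, 7.44% and 5.46%, 9.50% and 8.36%, and 6.31% and 7.99% in that order. B3gnt2, measured at a locus with Commd1, Gm12057 and Gm28048, was the highest (75.8 to 136 FPKM). Chst1, the keratan sulfotransferase, was at 15.2 FPKM in AGO2 -/- DMSO and 0.934 in AGO2 -/- tunicamycin.

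Fibrillar collagens and their partners form the fibrils on which these proteins sit. Of 16 genes that passed the limit, out of 22, 14 were higher and 0 lower under thapsigargin in AGO2 +/+, and 14 and 0 under tunicamycin in AGO2 -/-, with median log2 ratios of 2.19 and 2.66 beside 0.01 and 0 over all loci. The shares of all loci higher were 7.44% and 9.50%. Some of the genes passed the limit on mean level only through the 2 groups with high Bgn. Col11a1 was at 10.8 and 21.2 FPKM there and at most 0.508 elsewhere, and Postn at 4.77 and 10.1 and at most 0.0251. The limit thus sets part of these counts. The same applies to genes in other lists, among them Ust, Papss2, Mmp2, Adamts2, Adamts4, Adamts5 and Tll1. It also applies to Gpc2, measured at a locus with Gal3st4 and Gm43720. In the genotype comparisons 15 were higher under tunicamycin, as were 9.39% of all loci, and 14 lower under thapsigargin, as were 8.19%. Col12a1, a fibril-associated collagen, stood at 48.9 and 55.3 FPKM in the 2 groups with high Bgn and between 0.863 and 3.01 elsewhere. Sparc, a collagen-binding protein and the most abundant of the list, was at 664 and 863 FPKM there and between 127 and 227 elsewhere. Col1a1, the main collagen chain of fibroblasts, reached 521 and 651 FPKM in the same groups, but also differed between the others, with 112 in AGO2 +/+ DMSO and 5.97 in AGO2 -/- DMSO. Under tunicamycin in AGO2 +/+ 3 were higher and 4 lower, and under thapsigargin in AGO2 -/- 4 and 5, where all loci stood at 7.70% and 6.32% and at 6.31% and 7.99%.

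Of the genes for collagen processing and crosslinking 15 of 17 passed. They counted 7 higher and 1 lower under thapsigargin in AGO2 +/+, 8 and 1 under tunicamycin in AGO2 -/-, 1 and 3 under tunicamycin in AGO2 +/+ and 2 and 1 under thapsigargin in AGO2 -/-. In that order all loci stood at 7.44% and 5.46%, 9.50% and 8.36%, 7.70% and 6.32%, and 6.31% and 7.99%. Lox, the lysyl oxidase that crosslinks collagen, was at 101 and 114 FPKM in the groups with high Bgn, at 44.2 and 42.2 in AGO2 +/+ tunicamycin and AGO2 -/- DMSO, and below 0.01 in the 2 groups where Bgn was lowest. The 3 tiers of Bgn were thus also tiers of Lox. Loxl2, a related oxidase, was at 32.0 and 44.8 FPKM with high Bgn but at 0.0405 and 0.0267 in the middle pair and at 4.51 and 1.09 in the lowest. Serpinh1, the collagen chaperone, had the highest mean of this list, with 904 and 901 FPKM in the groups with high Bgn and 299 to 562 in the others.

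Proteinases known to cut these proteoglycans were fewer, 6 of 12 passing. Of these 3 were higher and 1 lower under thapsigargin in AGO2 +/+, 5 and 1 under tunicamycin in AGO2 -/-, 0 and 1 under tunicamycin in AGO2 +/+, and 1 and 0 under thapsigargin in AGO2 -/-. All loci stood at 7.44% and 5.46%, 9.50% and 8.36%, 7.70% and 6.32%, and 6.31% and 7.99% in these comparisons. Mmp2, Adamts5 and Adamts4 passed the limit on mean level only through the 2 groups with high Bgn. The limit thus sets part of these counts. Adamts5 was at 9.22 and 11.6 FPKM there and at most 0.337 elsewhere. Mmp2, a gelatinase, was at 18.9 and 23.5 FPKM with high Bgn and at most 0.523 otherwise. Mmp14, its membrane-bound activator, was at 83.7 and 81.4 FPKM there and 20.5 to 39.7 elsewhere. Htra1, a serine proteinase of the matrix, ran the other way, with 17.8 and 18.8 FPKM against 79.2 to 112.

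Growth factors and receptors bound by these proteins were listed as 22 genes, of which 19 passed. They counted 8 higher and 1 lower under tunicamycin in AGO2 +/+, 5 and 2 under thapsigargin in AGO2 +/+, 7 and 4 under tunicamycin in AGO2 -/-, and 1 and 7 under thapsigargin in AGO2 -/-. The shares of all loci, in the same order, were 7.70% and 6.32%, 7.44% and 5.46%, 9.50% and 8.36%, and 6.31% and 7.99%. Ltbp2, a latent TGF-beta binding protein, was at 24.0 FPKM in both groups with high Bgn, 3.92 and 3.81 in the middle pair and 0.190 and 0.680 in the lowest, again in the tiers of Bgn. Tlr4, a receptor for soluble biglycan, was at 1.09 and 1.41 FPKM in the groups with high Bgn and 5.50 to 8.65 in the others. Ltbp1, the most abundant of the list, ranged from 73.4 to 165 FPKM.

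**Figure D5:**
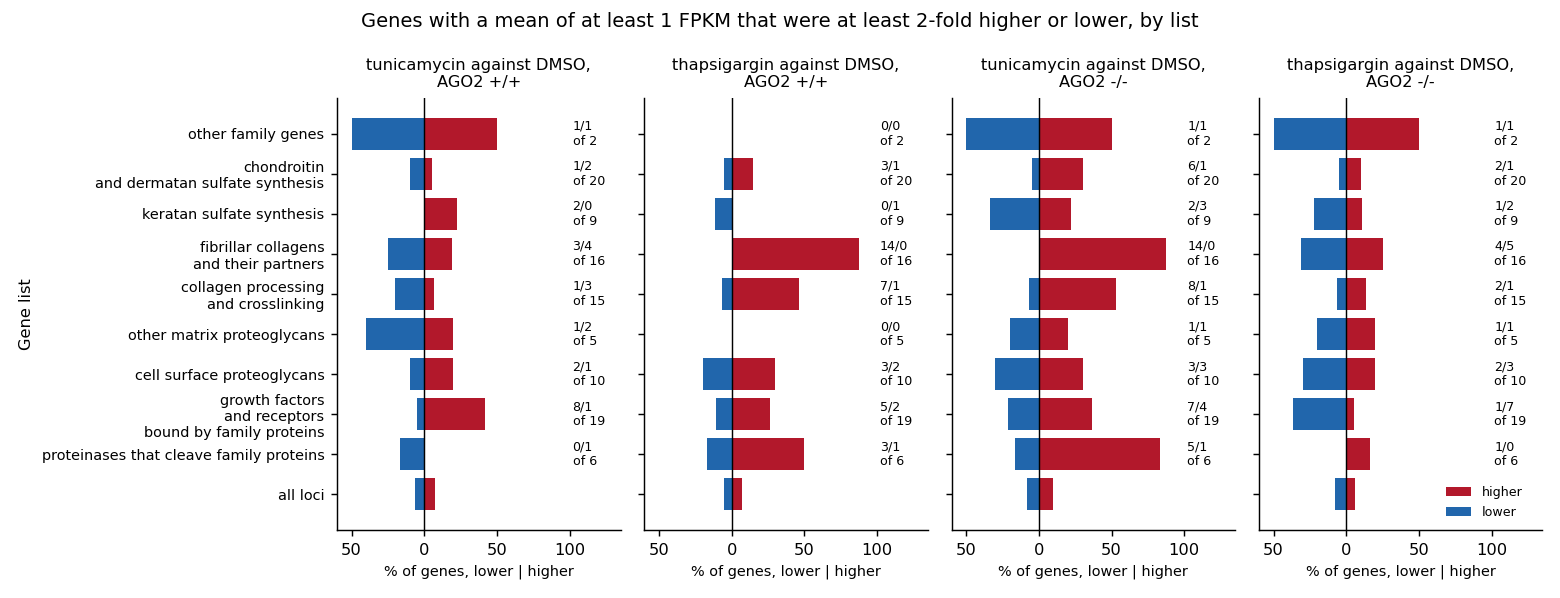
Bars give the percentage of genes passing the 1 FPKM limit that were at least 2-fold higher (red, to the right) or lower (blue, to the left) under a stressor than under DMSO, for 9 gene lists and for all loci, in 4 panels; the numbers at the right are counts higher and lower of those that passed. The list of fibrillar collagens and their partners reaches 14 of 16 higher in the 2 comparisons whose stressed group has high Bgn, where all loci stand at 7.44% and 9.50%.

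Markers of other cells were read beside these values. Of 7 markers of contractile fibroblasts and smooth muscle, 6 reached 1 FPKM. Their sum was 3242 FPKM in AGO2 +/+ thapsigargin and 2498 in AGO2 -/- tunicamycin, and 116 to 335 in the other 4 groups. Of the 7, Acta2, Tagln, Cnn1, Myl9 and Cald1 were highest in these 2 groups. Acta2, the smooth muscle actin, stood at 1644 and 1252 FPKM in the groups with high Bgn and at most 3.77 elsewhere, while Myh11, the smooth muscle myosin, was at most 0.0730 in any group. Des, which encodes desmin, ran the other way, with 0.397 and 0.499 FPKM in the groups with high Bgn and 2.95 and 2.58 in the groups where Bgn was lowest. The part of these 5 markers and of the Y-linked genes in the Bgn values was not tested. In pooled RNA, fewer cells of a kind and less RNA in each cell cannot be told apart.

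Of 7 fibroblast markers 6 reached 1 FPKM, with Vim between 952 and 2634, but Thy1 was listed at 0 in all groups. Dcn and Lum, which are also typical of fibroblasts, were low as described above. The sums of 7 chondrocyte, 7 osteoblast and 4 tendon markers were at most 6.51, 21.5 and 18.3 FPKM, with Sox9, Runx2, Scx and Mkx as their main contributors and the cartilage gene Col9a1 and the bone gene Ibsp listed at 0. None of the 6 epithelial or 5 endothelial markers reached 1 FPKM. Among 5 adipocyte markers Pparg was at 4.13 and 3.09 FPKM in the groups with high Bgn and at most 0.277 elsewhere. Fabp4, the other adipocyte marker that reached 1 FPKM, was highest in AGO2 -/- thapsigargin (1.55), a group with low Bgn, and Adipoq was at most 0.0467. Of the 5 macrophage and blood markers only Cd68 reached 1 FPKM (1.13 to 1.82).

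Loci whose levels ran most like those of Bgn were ranked by Pearson's r of log2(FPKM + 1) across the 6 groups, among 8952 loci with 1 symbol and at least 5 FPKM on average. The nearest were Ppil4 (r = 0.9994), Akap12 (0.9981) and Rtraf (0.9977), and 393 loci had an r of at least 0.95. Since r ignores size, the ranges were unlike: Ppil4 ran from 15.2 to 22.4 FPKM and Rtraf from 34.8 to 89.3, whereas Akap12, a scaffold for protein kinase A, ran from 0.679 to 24.5. The nearest to Ogn were Slc44a1, a choline transporter (r = 0.977, 8.95 to 14.2 FPKM), Fam208b (0.963) and Exoc3, a subunit of the exocyst (0.963), and 8 loci had an r of at least 0.95. Adding 0.1 in place of 1 FPKM left 365 loci at that r for Bgn and 8 for Ogn, and none of the 3 named for Bgn stayed among the nearest 3, while all 3 for Ogn did. By Spearman's rho 83 loci were at 0.95 or above for Bgn and 65 for Ogn, so the contrast between both counts depends on the measure. With 6 points that fall into 3 pairs of like groups, these values describe a pattern and carry no p.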

How the data were processed

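RNA from 18 libraries (6 groups of 3) was processed by the authors with FastQC 0.11.7, HISAT2 2.1.0, StringTie 1.3.4d and Cuffdiff 2.2.1, per the submitters' processing notes, on GRCm38 with Ensembl release 91 per the methods. The deposited FPKM is 1 estimate per locus and group made by the authors over the libraries of the group. The sources used here give neither the scaling nor the strandedness of the libraries. The table of 772485 rows (51499 loci, 15 pairs of groups) also holds the authors' own fold changes, test statistics and p- and q-values, which were not used. Depth is unknown: at best 28.0% to 40.5% of low values lay within 0.1 of a whole multiple of a common step, where 20% is expected, so whole reads could not be recovered. The number of libraries and the pooling limit the precision.

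Ratios were taken as log2 of FPKM plus a pseudocount of 1, and a locus was called at 2-fold among 11929 loci averaging at least 1 FPKM. A locus can pass that limit through 1 pair of groups alone and then tends to be called higher there. With 1 value per group, the FPKM allow no test. Libraries were grouped by title, 4 having conflicting genotype labels. Titles and table write DCR1 for the groups labelled AGO2 +/+. The members and the lists were chosen with earlier results of these data known. Every member is named. From each list, the 2 genes with the highest mean and those with the largest and smallest ratio were eligible for naming, and the 3 loci most like a member were named. Genes named beyond this rule, among them list genes, cell type markers and genomic neighbours, were picked after their values were seen. Alternatives changed the pseudocount, the floor, the fold, the centring, the scaling and the treatment of repeated symbols. Positions come from GENCODE M21 and promoter windows from RefSeq. Python 3.11.15, numpy 2.4.6, pandas 2.3.3 and scipy 1.17.1 were used. The log2 ratios and the counting of 2-fold calls were tested on simulated data, the other steps were not.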

Additional observations from a re-analysis of the deposited data

Results flagged for a closer look

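The thapsigargin change of Bgn had opposite signs in the labelled genotypes. In the groups labelled AGO2 +/+ it was 0.667 FPKM under DMSO and 498 under thapsigargin (log2 ratio 8.23), and in those labelled AGO2 -/- it was 5.52 and 1.00 (log2 ratio -1.70). The difference of both log2 ratios, AGO2 -/- minus AGO2 +/+, was -9.93. It was noted because the pooled values differ in opposite directions, and the difference was not tested, since each group has 1 value. The groups compared were also unlike in sex-linked genes. Xist was at 46.6 FPKM in AGO2 +/+ DMSO and 0.0102 in AGO2 +/+ thapsigargin, where Eif2s3y was at 0 and 32.3. In AGO2 -/- DMSO and AGO2 -/- thapsigargin Xist was at 0.0105 and 33.5 FPKM. Stressor, genotype label and kind of cells cannot be told apart in this difference.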

How the results depend on the processing

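No paired analysis was possible because the table holds 1 pooled value per group, and for the same reason leaving out a library and testing these values were not possible. The number of members called per comparison was recomputed under 9 alternatives for 10 comparisons. It stayed within 1.5 times the main count in all 10 comparisons with a pseudocount of 0.1 or 0.01 FPKM, a floor of 5 FPKM, centring on the median over loci, upper-quartile scaling (factors 0.971 to 1.03) and a sum over the loci of a symbol. With a 4-fold limit the count fell to 1 under thapsigargin in AGO2 +/+, 1 under tunicamycin in AGO2 -/-, 1 between the genotypes under tunicamycin, and 0 under thapsigargin in AGO2 -/-, between the genotypes under DMSO and between AGO2 +/+ thapsigargin and AGO2 -/- tunicamycin. With a 1.5-fold limit it was 2 under tunicamycin in AGO2 +/+, 2 between the genotypes under thapsigargin and 1 in the crossed pair of AGO2 +/+ DMSO with AGO2 -/- thapsigargin. Without the floor it was 3 between the genotypes under thapsigargin and 2 between AGO2 +/+ thapsigargin and AGO2 -/- tunicamycin, since Dcn and Aspn, or Aspn, then counted. Through Aspn it also rose from 2 to 3 under thapsigargin in AGO2 +/+, under tunicamycin in AGO2 -/- and between the genotypes under tunicamycin. No recomputed value past the 2-fold limit changed sign. A pseudocount of 0.1 FPKM widened the difference of the thapsigargin changes of Bgn to -11.7 and, ranked by r, left 365 loci like Bgn, with none of the 3 nearest kept. By Spearman correlation 83 loci were like Bgn and 65 like Ogn. Levels under 1 FPKM are limited most by depth, which is unknown.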

Other observations

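Other proteoglycans of matrix and cell surface, which share chains with the family but not its repeats, ran in several directions. Of 16 other matrix proteoglycan genes 5 passed the limit on mean level. Versican (Vcan), a large hyaluronan-binding proteoglycan, was at 46.3 FPKM in AGO2 +/+ tunicamycin and 52.1 in AGO2 -/- DMSO and between 2.47 and 5.12 in the other 4 groups. Cspg4, a transmembrane proteoglycan also known as NG2, was at 0.0199 and 0.0307 FPKM in the same 2 groups and between 5.81 and 9.73 elsewhere. Perlecan (Hspg2), the most abundant of the list, ranged from 36.7 to 84.2 FPKM.

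Of 11 cell surface proteoglycan genes 10 passed. The glypican gene Gpc4 had a value of 0 in AGO2 -/- DMSO and AGO2 +/+ tunicamycin, stood at 35.8 and 41.5 FPKM in the 2 groups with high Bgn, and at 5.83 and 2.01 in the remaining 2. Gpc1 was highest where Gpc4 was at 0, with 101 and 137 FPKM against 10.9 to 32.8. Syndecan 3 (Sdc3) followed the tiers of Bgn, with 17.3 and 14.1 FPKM, then 2.46 and 2.14, then 0.270 and 0.154. Syndecan 4 (Sdc4) stayed between 47.4 and 59.4 FPKM in all 6 groups.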
